A study of Mus musculus with 40 samples.

Results

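The results below concern gene expression changes shared by the CREB1-deficient lines of the mpkCCD series. Members were chosen by label: the 3 libraries labelled ATF1/CREB1-KO and the 3 labelled ATF1/CREB1/CREM-KO were pooled and compared with control clones 6 to 11, which makes 12 of the 22 libraries in the expression table and 12 of the 40 samples the series describes. mpkCCD cells are immortalized principal-type cells of mouse cortical collecting duct origin. Per the labels, all 12 cultures were grown on permeable supports and received 0.1 nM dDAVP, a synthetic analogue of the hormone vasopressin, for 72 hours, and the medium of every group also held dexamethasone, a glucocorticoid. The controls are unmodified clones. By label, ATF1/CREB1-KO cells lack ATF1 and CREB1 and ATF1/CREB1/CREM-KO cells lack CREM in addition, so both share the loss of ATF1 and CREB1. Whether knockout replicates came from separate clones is not stated in the labels, and p-values then measure only the spread between these libraries. Library numbers 11 to 16 (controls 6 to 8 and ATF1/CREB1-KO) and 17 to 22 (controls 9 to 11 and ATF1/CREB1/CREM-KO) are treated as 2 runs, although what sets them apart is not given by the labels, and each knockout label lies in 1 of them. Run was therefore kept as a block, so that knockout libraries were compared only with the 3 controls of the same library-number range.

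CREB1, ATF1 and CREM are closely related leucine-zipper transcription factors that bind, as dimers, a palindromic DNA element called the cAMP response element (CRE). Vasopressin acts on the principal cells of the collecting duct through its receptor Avpr2, cAMP and protein kinase A, which phosphorylates the CREB proteins, and one long-studied outcome is expression of the water channel aquaporin-2 (Aqp2). The comparison addresses which genes respond to the loss of CREB1 and ATF1 whichever of the 2 lines is read. A gene was counted as changed in common where the blocked change passed an adjusted p under 0.05 (limma, Benjamini-Hochberg over 13158 genes) and the change within each run had the same sign with an unadjusted p under 0.05. Changes are differences of log2(TPM + 1), a scale on which low genes change by less than their ratio.

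Of 13158 genes averaging 1 TPM or more over the 12 libraries, 1104 passed the blocked test (8.39%). Of these, 799 were changed in common: 304 were higher in both knockout labels (2.31% of the genes tested) and 495 were lower (3.76%). The other 305 passed within 1 label alone and are not described further. On the scale of the 2 within-run changes, 828 genes had an unadjusted p under 0.05 in both labels with the same sign (6.29%), and 19 had one with opposite signs. The within-run changes of the 2 labels share no library, and across the 13158 genes they had a Pearson correlation of 0.46 and a Spearman correlation of 0.45 (across genes, which are not independent replicates). Sharing no library does not make the 2 runs independent, since controls or knockout libraries of both may come from the same clones. Among the 799 genes, 731 were protein coding, 163 changed by at least 1 in both labels (75 higher, 88 lower), and 686 had all 3 knockout libraries on the same side of all 3 control clones in both runs, against 9.23% of all genes tested. The change differed between the 2 labels, in a test of that difference, for 9 of all genes (0.0684%), 5 of them among the 799. The split of higher against lower genes depended on scaling: 62.0% of the genes changed in common were lower with TPM as deposited, 46.3% with median-ratio scaling (455 higher, 393 lower) and 48.7% with quantile normalization (478 higher, 453 lower).

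**Figure D1:**
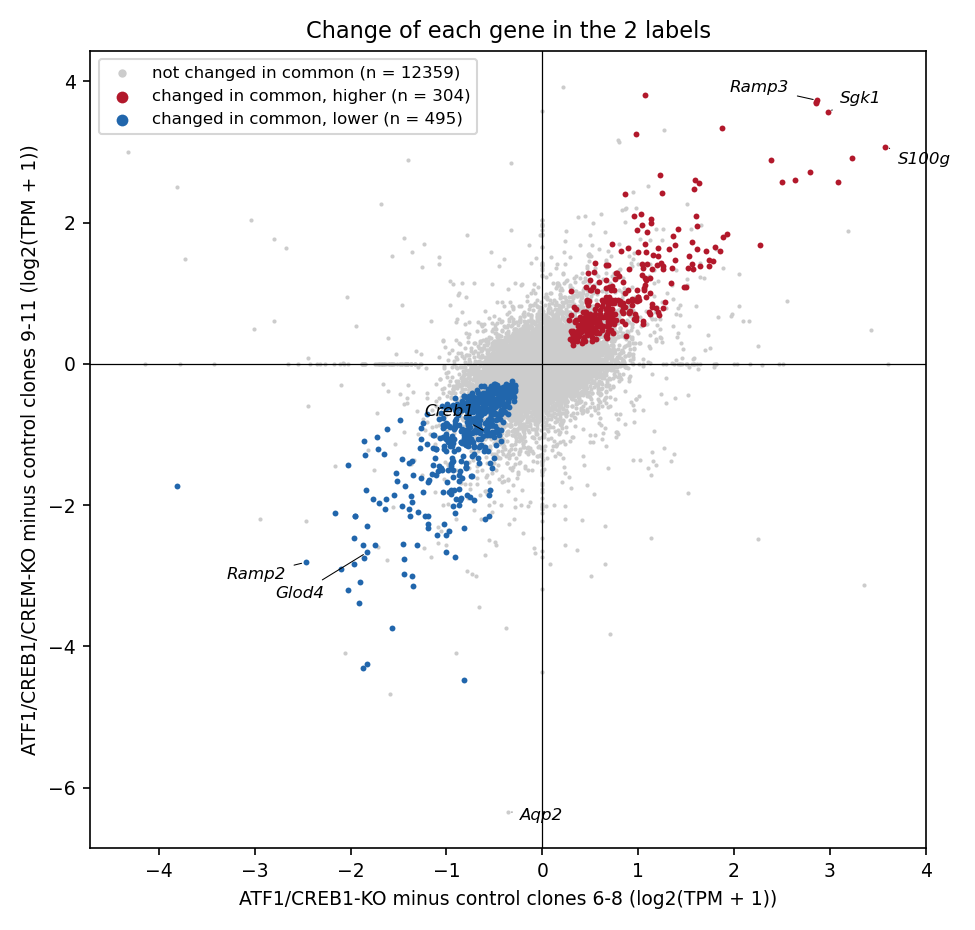
Change of each of the 13158 tested genes, with the libraries labelled ATF1/CREB1-KO against control clones 6 to 8 on the horizontal axis and those labelled ATF1/CREB1/CREM-KO against control clones 9 to 11 on the vertical axis, both as differences of log2(TPM + 1). The 304 genes higher in common (red) and 495 lower (blue) lie in opposite corners by construction of the rule, while Aqp2 lies at -0.36 and -6.34.

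Libraries of the 2 labels were not independent of one another in every respect. The median change of all tested genes of a chromosome, against own-run controls, was between -0.16 and 0.10 for every autosome and the X in each of the 6 control libraries, but reached -0.76 in the knockout libraries. Chromosome 14 stood at -0.54 in ATF1/CREB1-KO replicate 2 and at -0.55 and -0.53 in ATF1/CREB1/CREM-KO replicates 2 and 3, and in the same 3 libraries chromosome 18 stood at 0.34, 0.42 and 0.43. Chromosome 16 stood at -0.40 in ATF1/CREB1-KO replicate 1 and at -0.76 in ATF1/CREB1/CREM-KO replicate 1, which were also the lowest on chromosome 11 (-0.34 and -0.27). Chromosome 17 was above its controls in all 6, between 0.09 and 0.24. Such shifts were not limited to these 2 labels. In the libraries labelled ATF1-KO, chromosome 16 stood at -0.33 in replicates 1 and 2 and between -0.06 and 0.01 in the others. Chromosome 17 stood there at 0.36 in replicate 1 and between -0.05 and 0.03 in the others, and chromosome 14 between -0.12 and 0.19. Gene by gene, the change of a library labelled ATF1/CREB1-KO correlated at 0.44 with its like-patterned library for replicates 1 and 1, and at 0.44 and 0.46 for replicate 2 with replicates 2 and 3, against 0.13 to 0.27 for the other 6 pairs (Pearson over 13158 genes). With the median of each chromosome taken out, these values were 0.43, 0.42 and 0.44, against 0.12 to 0.28. The share of genes changed in common followed these shifts in part. On chromosome 14, 48 of 413 tested genes were lower (11.6%, beside 3.76% of all genes). On chromosome 17, 48 of 684 were higher (7.02%), and on chromosome 18, 23 of 314 (7.32%), beside 2.31% of all genes. Chromosome 16 had 15 of 411 lower (3.65%), close to the share of all genes. Chromosomes 10, 11 and 12 had 6.02%, 6.35% and 6.5% lower. Whether chromosome copy number or a shared line of descent has a part in this was not tested. With each library's chromosome medians taken out, an alternative chosen after seeing these values, 817 genes were changed in common (387 higher, 430 lower), and 597 of the 799 were among them. Controls of the 2 runs were also alike in places. Chromosome 3 stood at 0.01, -0.08 and 0.08 in control clones 6 to 8 and at 0.07, -0.16 and 0.10 in control clones 9 to 11. Control clones 7 and 10 deviated alike from their own-run control means for Cebpd (-0.94 and -1.25) and Timp3 (0.71 and 0.72), but not for Ramp2 (-0.24 and 0.06). Whether the controls of the 2 runs came from the same clones was not tested.

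**Figure D2:**
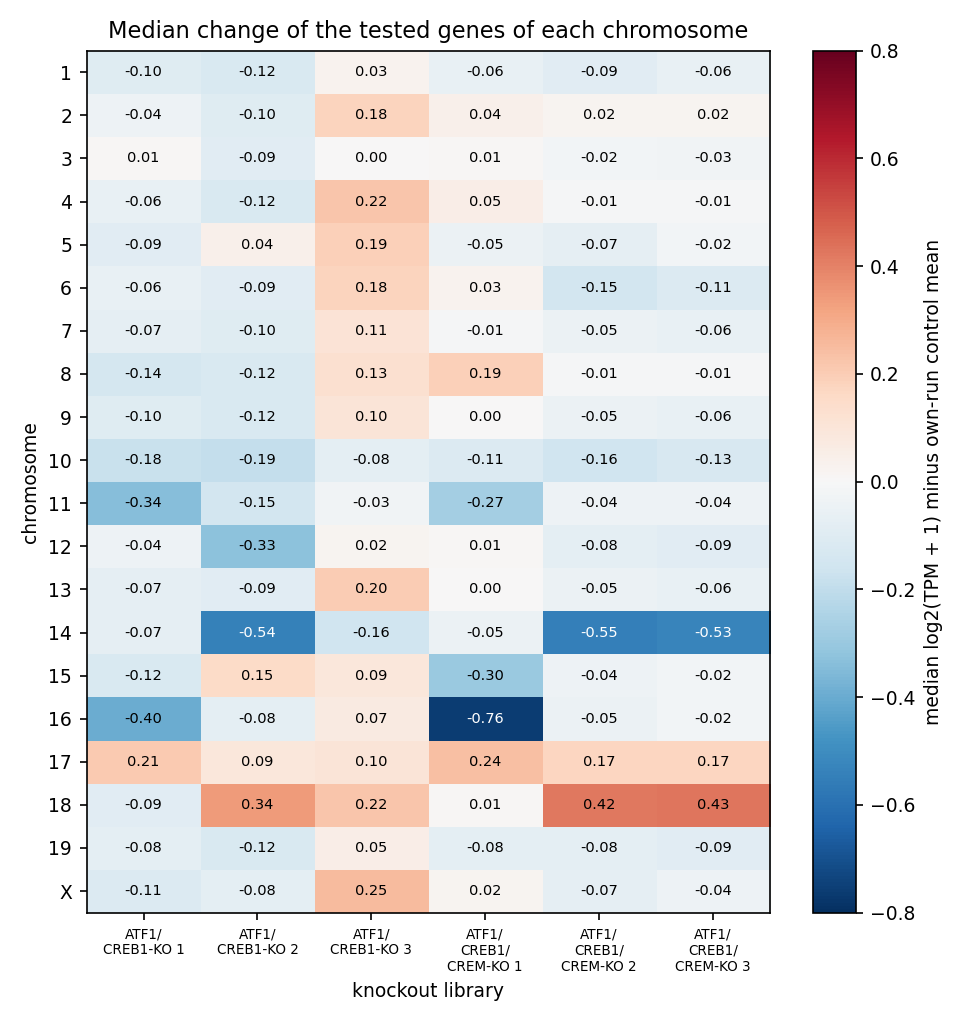
Median difference in log2(TPM + 1) from own-run controls, over the tested genes of each chromosome (rows), for the 6 knockout libraries (columns). Chromosome 14 is between -0.53 and -0.55 in 3 libraries of the 2 labels, and chromosome 16 is at -0.40 and -0.76 in replicate 1 of each.

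The table gives TPM, which keeps no depth, so precision is judged from the spread between libraries. Each library had 18220 to 20375 genes above 0, and log2 values of libraries of the same group and run correlated at 0.918 to 0.979, against 0.782 to 0.838 between runs. ATF1/CREB1-KO replicate 3 stood apart, with a limma array weight of 0.0672 where the other 11 libraries had 0.25 to 3.32; without it 1428 genes were changed in common (452 higher, 976 lower). Of 13 principal cell markers, 10 averaged at least 1 TPM, Cdh16, Fxyd4 and Avpr2 among them, while Aqp4, Scnn1b and Elf5 did not. Markers defining intercalated, proximal, thick limb, stromal, immune and endothelial cells mostly had medians near 0. The exceptions were Aqp6, Lrp2 and Csf1r, with medians of 7.2, 6.73 and 11.2 TPM, while Slc12a3, Ptprc and Dcn reached 4.4, 3.54 and 1.95 TPM at their highest. The summed thick limb and distal tubule markers were 0.04 to 0.14 TPM in control clones 9 to 11 and 1.96 to 4.4 TPM in ATF1/CREB1/CREM-KO, and 0.06 to 0.23 against 0.24 to 0.79 TPM in the other run. The part of these markers in the results was not tested.

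The targeted genes were read first. Creb1 had 4.98, 6.69 and 4.99 TPM in control clones 6 to 8 and 3.86, 3.59 and 2.72 TPM in the libraries labelled ATF1/CREB1-KO. In the other run it had 39.0, 38.2 and 35.9 TPM in control clones 9 to 11 and 18.6, 18.2 and 19.4 TPM in those labelled ATF1/CREB1/CREM-KO. Every knockout library lay below every control of its run, and the blocked change was -0.78 (SE 0.12, adjusted p = 0.00193), with an exact within-run permutation p of 0.005, the smallest that 400 labelings allow, and 0.01 adjusted over 4 genes. Atf1 had 23.3, 26.2 and 23.9 TPM against 18.3, 23.7 and 15.1, and 39.9, 39.8 and 40.5 against 23.7, 40.8 and 32.7. These groups overlapped, and the change of -0.35 (SE 0.14) did not pass (adjusted p = 0.138, exact permutation p = 0.055). Crem, the target added in the second label, had 24.9, 20.0 and 23.1 TPM in control clones 9 to 11 and 26.0, 31.6 and 33.8 TPM in the libraries labelled ATF1/CREB1/CREM-KO, so its transcript was not lower where the label names its knockout. It was 9.08, 10.6 and 13.0 TPM against 15.5, 20.5 and 46.5 in the other run, and the blocked change of 0.77 (SE 0.24) had an adjusted p of 0.0672 in limma and an exact permutation p of 0.005 (0.01 adjusted over the 4 genes). Crem lies on chromosome 18, whose genes were higher as a whole in 3 of the 6 knockout libraries by at least 0.34. These values sum over a whole gene, and no file shows which exons were altered, so they do not test whether protein was lost.

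Aqp2 is named in the title of the series, and it was not among the genes changed in common. It had 855, 379 and 1029 TPM in control clones 6 to 8 and 637, 492 and 508 TPM in the libraries labelled ATF1/CREB1-KO, which overlap. Control clones 9 to 11 had 1627, 641 and 2279 TPM, while ATF1/CREB1/CREM-KO libraries had 15.1, 16.1 and 15.3 TPM. The within-run changes were -0.36 (SE 0.44, unadjusted p = 0.433) and -6.34 (SE 0.44, adjusted p = 2.39e-05), and their difference of -5.98 passed on its own (adjusted p = 0.00574). Label and run cannot be told apart in that difference. The blocked change of -3.35 (SE 0.90, adjusted p = 0.0396, exact permutation p = 0.02, 0.0267 adjusted over the 4 genes) thus averages unlike values, and it no longer passed in 8 of the 12 fits without 1 library.

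**Figure D3:**
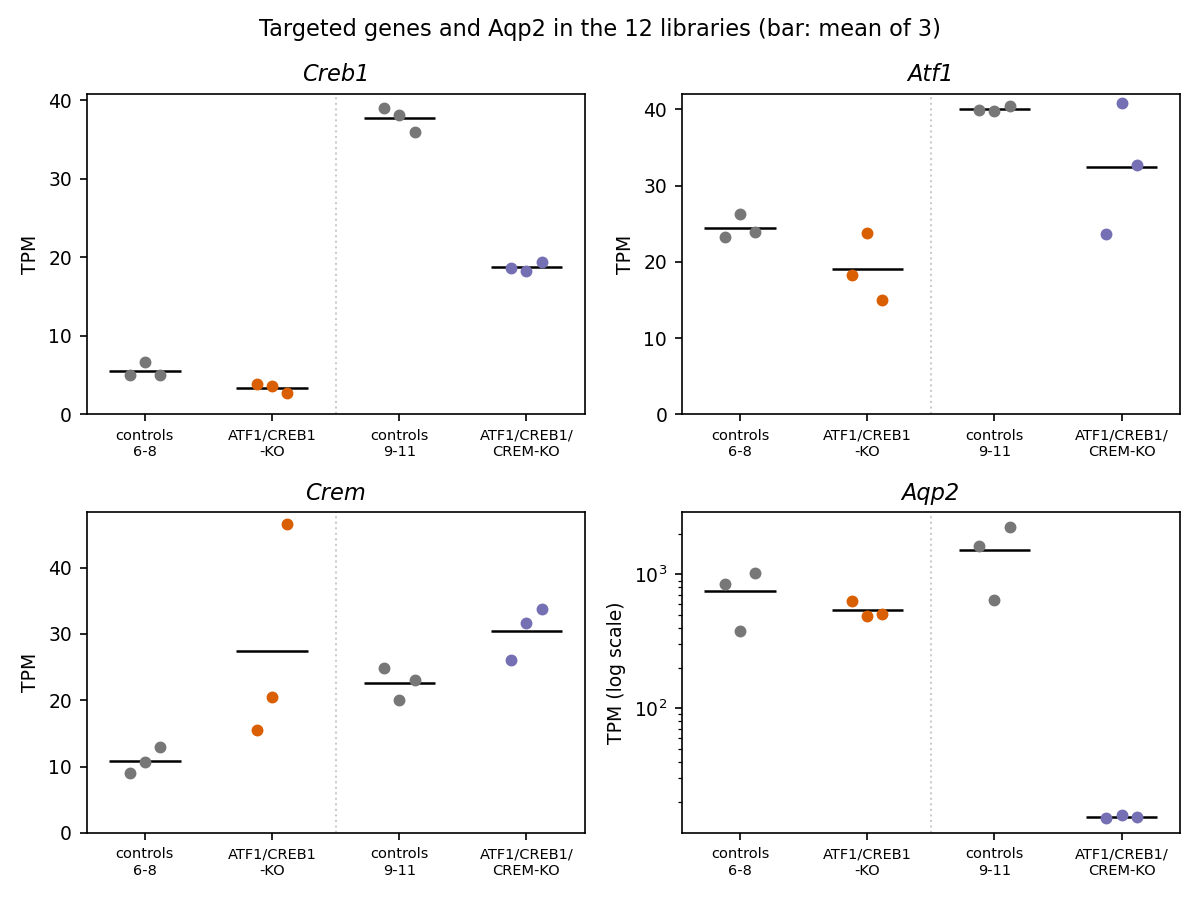
TPM of Creb1, Atf1, Crem and Aqp2 in each of the 12 libraries (points, with the mean of 3 as a bar; Aqp2 on a log axis). Creb1 is lower in all 6 knockout libraries than in their own controls, Crem is not lower in the libraries labelled ATF1/CREB1/CREM-KO, and Aqp2 is near 15 TPM in those alone.

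The CRE was counted in promoters because it is the element these factors bind. The 250 bases before each start in the RefSeq promoter table (GRCm38.p6) were searched on both strands for the full CRE, TGACGTCA, and for the shorter core site TGACG, which also lies within the full element and reads CGTCA on the other strand. A gene was counted if any of its listed starts had a match. The table held a promoter for 395 of the 495 lower genes, 217 of the 304 higher genes and 9438 of 13130 gene symbols tested. Of the genes named below, 6 that were lower in common had a full CRE, and the 4 with the largest decreases are shown, to let the site and its surroundings be read; the others were Rpl13 and Rps9. Capitals mark the CRE, letters run 5′ to 3′ on the gene's strand, and windows that overlap an annotated exon were kept to 30 bases.
1810044D09Rik (chr6:91440928-91440957, + strand, CRE 40 bases before the start): gcgcggttacaTGACGTCAtcctgaggcgc
Glod4 (chr11:76243705-76243734, - strand, 16 bases before the start): tcgagtgttagTGACGTCAcccgacgatcc
Btg2 (chr1:134079284-134079351, - strand, 158 bases before the start): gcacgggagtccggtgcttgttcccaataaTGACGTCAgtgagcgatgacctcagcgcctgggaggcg
Ndufb2 (chr6:39592521-39592564, + strand, 6 bases before the start): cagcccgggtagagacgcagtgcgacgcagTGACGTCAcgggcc

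The full CRE was found in 45 of the 395 lower genes with a promoter (11.4%), in 7 of the 217 higher genes (3.23%) and in 297 of all 9438 (3.15%). The core site was in 204 lower genes (51.6%), 58 higher genes (26.7%) and 2985 of all (31.6%). Read the other way, 45 of the 297 genes with a full CRE were lower in common (15.2%) and 7 were higher (2.36%), where 350 of the 9141 without one were lower (3.83%). The match was close to the start: 42 of 242 genes whose CRE ended within 100 bases of the start were lower (17.4%), against 3 of 55 with a CRE farther away (5.45%), 159 of 2688 with a core site only (5.92%) and 191 of 6453 with neither (2.96%). Higher genes made up 2.07%, 3.64%, 1.9% and 2.45% of the same 4 classes. The median change over all 297 genes was -0.14 for ATF1/CREB1-KO and -0.18 for ATF1/CREB1/CREM-KO, and 164 of them (55.2%) were below 0 in both, against 36.2% of the genes without a CRE.

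The searched bases had a median GC content of 62% in lower genes, 60% in higher genes and 61.6% in all. Within promoters of 60% GC or more, 32 of 187 genes with a full CRE were lower (17.1%) against 200 of 5168 without (3.87%), and within 50 to 60% GC the counts were 10 of 93 (10.8%) against 117 of 2961 (3.95%). Below 50% GC they were 3 of 17 (17.6%) against 33 of 1012 (3.26%). Other elements were searched in the same way, in lower genes and in all genes. The AP-1 site TGACTCA was in 3.8% and 3.97%, the E-box CACGTG in 9.37% and 10.1%, the CCAAT box, searched as CCAAT, in 41.8% and 41%, the GC box GGGCGG in 65.1% and 65.5%, and the ETS site CCGGAAG in 10.9% and 16.7%. Over the settings other than the one without a run block, between 10.2% and 23.6% of genes with a full CRE were lower, and between 2.21% and 10.6% of those without. With chromosome medians taken out the shares were 12.1% and 3.29%. A match is a description of the letters and does not show binding.

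**Figure D4:**
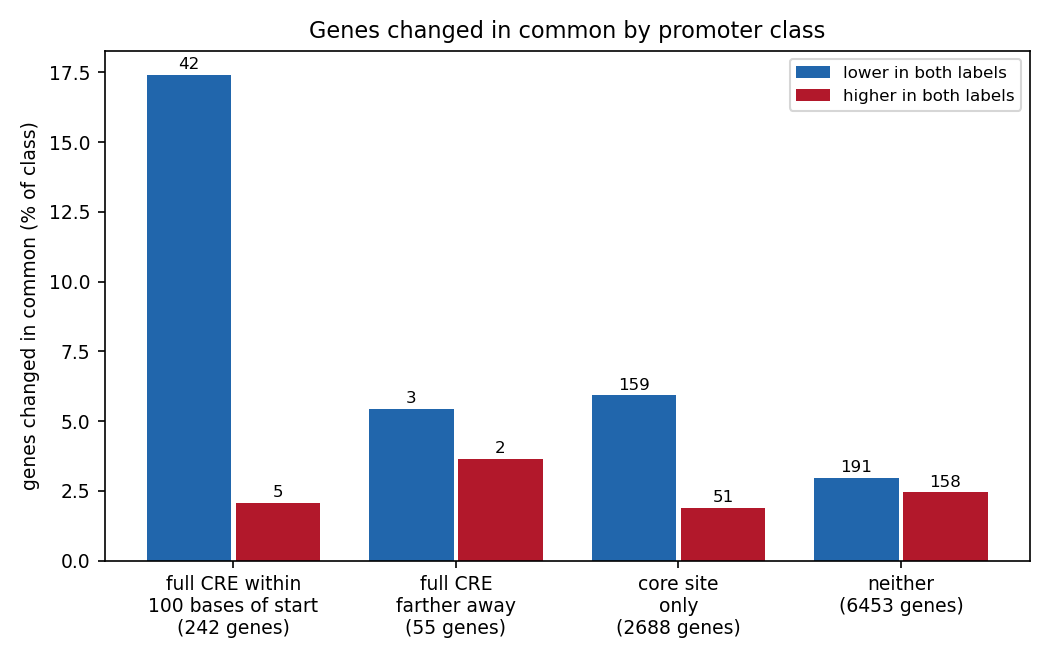
Share of genes lower (blue) and higher (red) in both knockout labels, in 4 classes of genes by what the 250 bases before the start hold, with the number of genes changed above each bar. Lower genes make up 17.4% of the 242 genes with a full CRE within 100 bases of the start and 2.96% of the 6453 genes with neither site.

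Of the 45 lower genes with a full CRE, 40 had all knockout libraries below all own-run controls, as did 445 of all 495 lower genes. In each of the 12 fits that left out 1 library, 22 kept the call, as did 355 of all 799 genes changed in common. The mean change of the 5 libraries labelled ATF1-KO, which lack ATF1 alone by label, was below 0 for 15 of the 45. It had the sign of the pooled change for 399 of the 799. Another 5 of the 45, those with the largest decreases after 1810044D09Rik and Glod4, were named after their values were seen, and their sites are shown to let the surrounding letters be compared.
Snapc5 (chr9:64179265-64179294, + strand, 13 bases before the start): gcagtcggcggTGACGTCAtcaccgcgcgc
Nubpl (chr12:52097708-52097737, + strand, 19 bases): gggttgccacgTGACGTCAtttttccgcgc
Mrm3 (chr11:76243705-76243734, + strand, 12 bases): ggatcgtcgggTGACGTCActaacactcga
Ggt1 (chr10:75571490-75571519, + strand, 51 bases): ccttgcggctgTGACGTCAgcgttgaccat
Tspyl4 (chr10:34297377-34297406, + strand, 25 bases): agctggtatccTGACGTCAcaggttgccat

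Mrm3 and Glod4 share 1 CRE, read on opposite strands, between their divergent starts. Mrm3, which encodes a methyltransferase of mitochondrial ribosomal RNA, fell by 1.74 (SE 0.21, adjusted p = 6.01e-04). Its mean was 10.2 ± 1.86 TPM in control clones 6 to 8 and 3.38 ± 2.23 in the libraries labelled ATF1/CREB1-KO (SD, n = 3). The other run gave 24.3 ± 2.28 and 5.20 ± 0.352 TPM. Snapc5, a subunit of the complex that starts small nuclear RNA transcription, fell by 2.16 (SE 0.20, adjusted p = 9.59e-05), from 110 ± 4.17 to 33.4 ± 13.2 TPM and from 40.8 ± 2.77 to 6.10 ± 1.09 TPM. Nubpl, an assembly factor of respiratory complex I, fell by 2.66 (SE 0.37, adjusted p = 0.00133), from 6.83 ± 1.65 to 1.81 ± 1.43 TPM and from 16.9 ± 0.511 to 0.360 ± 0.291 TPM. In the libraries labelled ATF1-KO their changes against control clones 1 to 5 were -0.09 for Mrm3, 0.15 for Snapc5 and 0.10 for Nubpl, none of which passed. Tspyl4 fell by 2.25 (SE 0.30, adjusted p = 9.78e-04). Ggt1, which breaks down glutathione, fell by 2.20 (SE 0.45, adjusted p = 0.0109), with groups that overlapped.

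The 14 largest decreases, ranked by the smaller of the 2 within-run changes, were taken from genes whose knockout and control groups did not overlap in either run, as were the 14 largest increases, so the lack of overlap was set by the choice and is no support. The first was Ramp2, a single-pass protein that couples to the calcitonin receptor-like receptor to form an adrenomedullin receptor. Ramp2 had 19.5, 14.8 and 19.1 TPM in control clones 6 to 8 and 0, 2.69 and 9.35 TPM in the libraries labelled ATF1/CREB1-KO. In the other run it had 8.91, 9.97 and 9.79 TPM against 0.27, 0.63 and 0.64. It fell by 2.64 (SE 0.41, adjusted p = 0.00242), and the libraries labelled ATF1/CREB1-KO spread more widely than the others. Atxn7l1, a relative of the SAGA subunit ataxin-7, had 7.14, 10.2 and 8.31 TPM against 1.5, 0.8 and 1.75, and 30.01, 27.99 and 25.62 TPM against 2.35, 1.56 and 2.61. The change of -2.62 (SE 0.22, adjusted p = 6.22e-05) was larger than the spread within any group.

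Wdr90, a centriolar wall protein, had 17.1, 20.7 and 18.3 TPM against 5.34, 4.09 and 3.05, and 53.2, 59.0 and 56.8 against 11.9, 12.2 and 11.3. It had, with Cisd2, the smallest adjusted p of all genes (-2.06, SE 0.11, adjusted p = 2.25e-06). Sclt1, a component of centriolar distal appendages, fell by 2.22 (SE 0.17, adjusted p = 4.04e-05), from 9.15 to 10.8 TPM in control clones 6 to 8 down to 1.13 to 2.52 TPM, and from 23.8 to 30.4 TPM down to 3.12 to 4.66 TPM. Mzt2, a subunit of the gamma-tubulin ring complex, fell by 2.30 (SE 0.23, adjusted p = 1.69e-04). These 3 were picked out of the 14 after their values were seen.

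Mrpl4, a protein of the large subunit of the mitochondrial ribosome, had 60.0, 74.5 and 63.4 TPM against 9.12, 14.8 and 30.3, and 81.0, 97.6 and 87.0 against 23.4, 17.3 and 17.2 (change -2.06, SE 0.22, adjusted p = 2.43e-04). Cisd2, an iron-sulphur protein of the endoplasmic reticulum and mitochondrial membranes, had 64.0, 57.7 and 64.4 TPM against 19.1, 14.9 and 16.4, and 94.7, 81.0 and 89.7 against 19.0, 16.0 and 16.4 (change -2.07, SE 0.12, adjusted p = 2.25e-06). Its knockout libraries lay within 14.9 to 19.1 TPM in both runs. Glod4, a glyoxalase-domain protein with the CRE printed above, had 36.4, 41.1 and 31.4 TPM against 4.03, 7.30 and 26.1, and 131, 173 and 121 against 17.67, 21.38 and 25.02 (change -2.25, SE 0.34, adjusted p = 0.00192). Here ATF1/CREB1-KO replicate 3 was much closer to its controls than the other two. 1810044D09Rik, whose CRE is also shown, had 19.6, 20.4 and 26.8 TPM against 3.88, 5.73 and 3.73, and 10.1, 7.91 and 8.36 TPM against 0, 0 and 1.19 (change -2.50, SE 0.23, adjusted p = 9.59e-05).

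Cebpd, a leucine-zipper factor induced by glucocorticoids and cytokines, had 30.68, 10.76 and 30.01 TPM against 4.12, 6.94 and 3.77, and 25.8, 6.86 and 30.03 against 1.36, 3.50 and 2.67 (change -2.21, SE 0.36, adjusted p = 0.00335). Control clones 7 and 10 were the lowest controls of their runs. Timp3, an inhibitor of matrix metalloproteinases, had 6.82, 12.7 and 4.48 TPM against 0.72, 1.62 and 1.16, and 38.3, 68.0 and 26.2 against 0.60, 8.53 and 12.1 (change -2.41, SE 0.47, adjusted p = 0.00861). Rap1gap, which switches off the small GTPase Rap1, fell by 2.49 (SE 0.48, adjusted p = 0.00834), Eya2, a phosphatase and transcriptional coactivator, by 1.82 (SE 0.39, adjusted p = 0.0141), and Limch1, a regulator of non-muscle myosin, by 2.65 (SE 0.59, adjusted p = 0.0176). Timp3, Rap1gap and Limch1 lost the call in common in at least 1 fit without 1 library: Timp3 without control clone 7 (blocked change -2.30, adjusted p = 0.0243), Rap1gap without control clone 7 or ATF1/CREB1-KO replicate 1 (-2.47 and -2.41), and Limch1 without any 1 of the 6 controls or ATF1/CREB1-KO replicate 1 or 2 (-2.49 to -2.74). The other 11 decreases kept the call in all 12. In the libraries labelled ATF1-KO, against control clones 1 to 5, the change was -2.34 for Limch1, -1.65 for Timp3, -1.31 for Rap1gap, -1.13 for Ramp2 and -0.83 for Eya2. The others of the 14 lay between -0.30 and 0.13 there, and none of the 14 passed an adjusted p. A test of the pooled change against the ATF1-KO change did not pass for Limch1, Timp3, Rap1gap, Ramp2 or Eya2 (limma, adjusted p of 0.134 for Ramp2 to 0.906 for Limch1). Nor did it pass for Cebpd (0.0557). For the rest of the 14 it passed, with adjusted p of 5.47e-08 for Wdr90 to 0.00236 for Glod4. All 14 were chosen for a large pooled change, so these passes are a description.

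The largest increases were those of S100g and Sgk1. S100g encodes calbindin-D9k, a calcium-binding protein of transporting epithelia. It had 4.79, 3.44 and 3.94 TPM in control clones 6 to 8 and 75.3, 145 and 18.5 TPM in the libraries labelled ATF1/CREB1-KO. It had 1.62, 1.35 and 1.94 TPM in control clones 9 to 11 and 14.9, 26.6 and 23.6 TPM in those labelled ATF1/CREB1/CREM-KO. S100g rose by 3.33 (SE 0.38, adjusted p = 3.57e-04). Sgk1 encodes a kinase, induced by glucocorticoids and aldosterone, that keeps the epithelial sodium channel at the apical membrane. Sgk1 had 18.9, 29.0 and 11.9 TPM against 119, 148 and 211, and 95.1, 156 and 71.5 against 760, 1585 and 1524. It rose by 3.28 (SE 0.28, adjusted p = 7.82e-05). Its level was higher in controls 9 to 11 than in controls 6 to 8. In the 5 libraries labelled ATF1-KO its change was -1.39, which did not pass (adjusted p = 1.00).

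Ramp3 rose where Ramp2 fell. Ramp3, the third protein of this family, pairs with the same receptor and with the calcitonin receptor. Ramp3 had 0.99, 1.5 and 0.4 TPM against 2.64, 18.1 and 38.6, and 0.8, 0.78 and 0.59 against 10.2, 32.7 and 30.9. It rose by 3.30 (SE 0.49, adjusted p = 0.00193). Their partner receptor genes Calcrl and Calcr were listed at no more than 0.02 and at 0 TPM in the 12 libraries. Ramp1 did not pass: it had 39.84, 42.16 and 37.97 TPM against 26.5, 67.1 and 31.7, and 10.7, 12.7 and 12.2 against 1.82, 10.0 and 12.3 (change -0.42, SE 0.35, adjusted p = 0.516). Of the 10 genes of a list of the calcitonin receptor family, made after the data were seen, 5 were tested and Ramp2 and Ramp3 were the 2 changed in common. That is 20% in each direction, beside 2.31% of all genes higher and 3.76% lower, in a list made with these genes known.

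**Figure D5:**
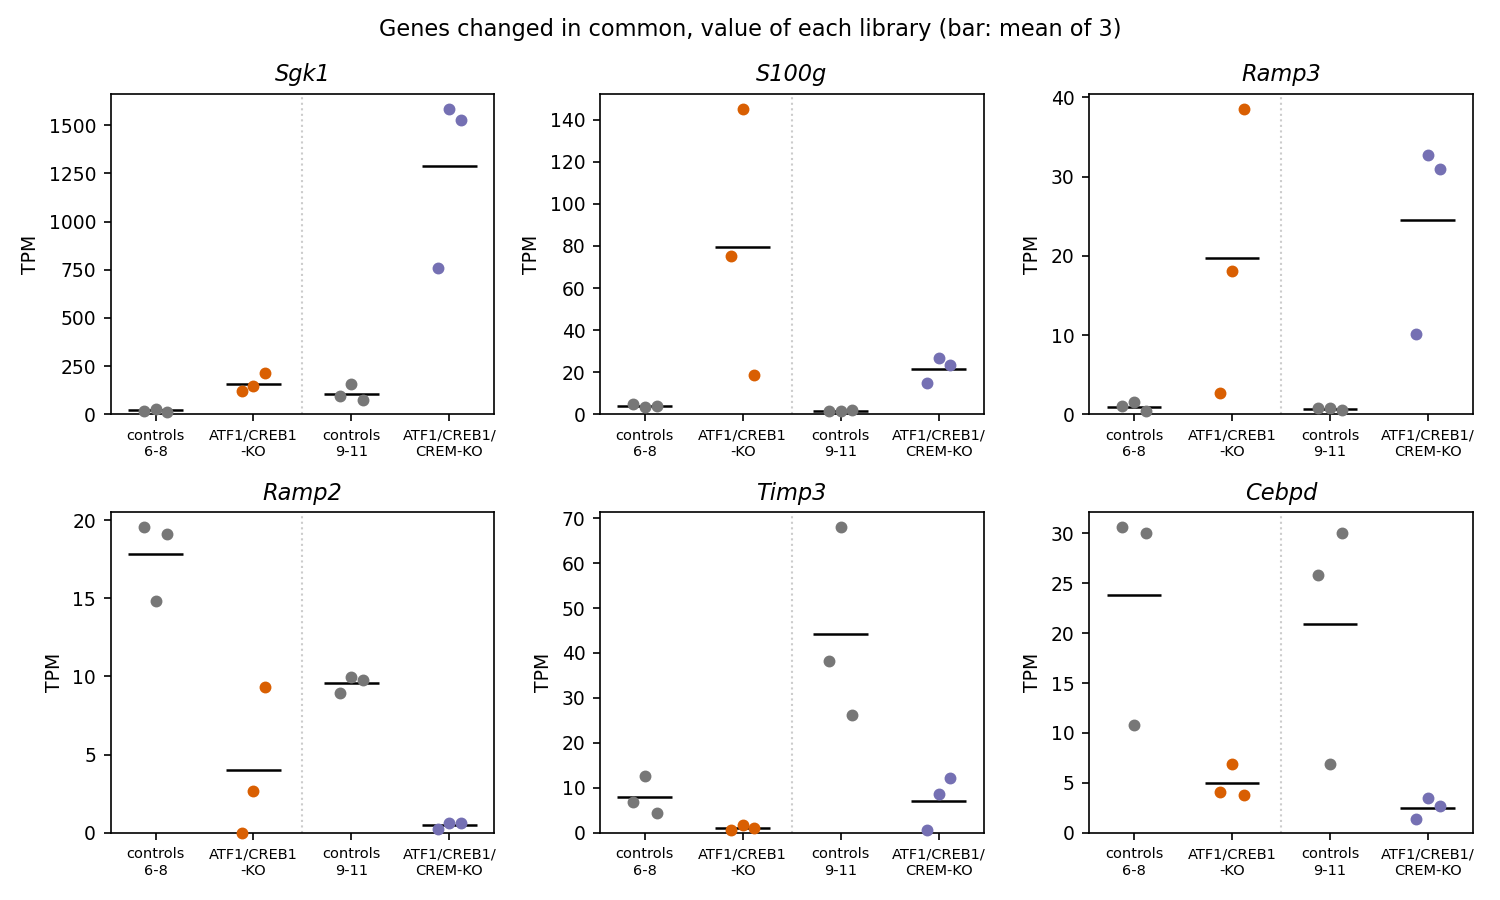
TPM of 3 genes higher in common (Sgk1, S100g, Ramp3) and 3 lower (Ramp2, Timp3, Cebpd) in each of the 12 libraries, with the mean of 3 as a bar; a dotted line separates the 2 runs. All 6 genes were chosen among those whose groups do not overlap, and levels differ between runs (Sgk1 reaches 211 TPM in one and 1585 TPM in the other).

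Tspan13, a tetraspanin, had 1.87, 0.82 and 2.55 TPM against 6.46, 21.5 and 90.1, and 4.77, 1.70 and 4.62 against 48.4, 26.5 and 26.2 (change 3.07, SE 0.48, adjusted p = 0.00259). Alox5ap, which presents arachidonic acid to 5-lipoxygenase for leukotriene synthesis, had 15.0, 13.6 and 10.3 TPM against 44.0, 56.4 and 34.7, and 8.23, 8.14 and 5.48 against 15.2, 32.5 and 27.0 (change 1.65, SE 0.19, adjusted p = 3.81e-04). Sult1c2, a sulfotransferase, rose by 2.54 (SE 0.38, adjusted p = 0.00202), and Ggh, which removes glutamates from folates, by 1.62 (SE 0.21, adjusted p = 8.81e-04).

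Il1rn, the secreted antagonist of the interleukin-1 receptor, had 2.17, 2.96 and 2.07 TPM against 5.11, 11.4 and 13.5, and 4.10, 6.84 and 5.00 against 38.4, 17.3 and 18.3 (change 1.78, SE 0.25, adjusted p = 0.00122). The surface antigen gene Ly6a rose by 1.84 (SE 0.29, adjusted p = 0.00290), Epb41l3, which links membrane proteins to spectrin and actin, by 2.10 (SE 0.32, adjusted p = 0.00212), and Malrd1, known from bile acid regulation in the gut, by 2.61 (SE 0.46, adjusted p = 0.00478). Grb14, an adaptor that restrains the insulin receptor, rose by 1.85 (SE 0.38, adjusted p = 0.0117) and lost the call in common without ATF1/CREB1-KO replicate 2 or replicate 3 (1.72 and 1.76). Gm32461 and Pate14 rose by 2.76 (SE 0.27) and 2.84 (SE 0.28), each with an adjusted p of 1.69e-04. The other 13 of the 14 increases kept the call in all 12 fits. In the libraries labelled ATF1-KO, Il1rn and Epb41l3 were also higher, by 1.40 and 1.07. Sult1c2, Tspan13 and Sgk1 were lower there, at -2.12, -1.71 and -1.39. The others of the 14 lay between -0.91 and 0.48, and none of the 14 passed an adjusted p. A test of the pooled change against the ATF1-KO change passed for Sult1c2, Tspan13 and Sgk1 (limma, adjusted p = 3.23e-04, 1.25e-04 and 0.00273). It did not pass for Il1rn, Epb41l3 or Ly6a (0.780, 0.347 and 0.0614) and passed for the rest of the 14. All 14 were chosen for a large pooled change, so these passes are a description.

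Among 22 tested genes of principal cells, Sgk1 and Nr3c2 were higher in common and none was lower (backgrounds 2.31% and 3.76%). Nr3c2 is the mineralocorticoid receptor, through which aldosterone acts. Its levels were low, with 1.73, 1.38 and 0.49 TPM against 2.70, 4.32 and 7.88, and 1.83, 1.21 and 0.87 against 5.04, 5.30 and 5.56. The groups did not overlap, and Nr3c2 rose by 1.43 (SE 0.22, adjusted p = 0.00225). The sodium channel subunit genes Scnn1a and Scnn1g did not pass (0.02 and 0.36, adjusted p = 0.957 and 0.585), nor did the vasopressin receptor gene Avpr2 (-0.08, adjusted p = 0.862) or Gata3 (-0.30, adjusted p = 0.212). Hsd11b2, which shields the receptor from glucocorticoids, had 16.7, 14.9 and 15.7 TPM against 171, 50.4 and 30.9, and 58.3, 72.1 and 61.6 against 558, 34.7 and 55.1. Its replicates spread widely, and it did not pass (1.33, SE 0.61, adjusted p = 0.207). In a list of 20 tested glucocorticoid and aldosterone responders made after the data were seen, Sgk1 and Nr3c2 were higher and Cebpd, Ddit4 and Mt2 were lower. These were 10% higher and 15% lower, beside 2.31% and 3.76% of all genes, and a list made in that way is no support. Mt2, a metallothionein, had 1212, 1273 and 1087 TPM against 244, 551 and 404, and 200.96, 276.62 and 218.22 against 66.3, 117 and 107 (change -1.46, SE 0.20, adjusted p = 0.00123). The glucocorticoid readouts Fkbp5 and Tsc22d3 were 0.59 (SE 0.17, adjusted p = 0.0488) and 0.52 (SE 0.15, adjusted p = 0.0554) and were not changed in common.

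Of 21 tested members of a list of CREB family factors and cofactors, Creb1 was lower and Creg1 and Crebrf were higher in common (4.76% lower and 9.52% higher, beside 3.76% and 2.31% of all genes). Creg1, a secreted lysosomal glycoprotein, and Crebrf are on the list by name and are not CRE-binding members of the family. Among 26 tested genes of cAMP signalling, 1 was higher and 3 were lower (3.85% and 11.5%, beside 2.31% and 3.76% of all genes). The 3 were Prkacb, a catalytic subunit of protein kinase A (-0.54, SE 0.12, adjusted p = 0.0161), and the cAMP phosphodiesterases Pde4b and Pde4c. Pde4b had 3.87, 4.61 and 4.45 TPM against 1.39, 2.01 and 2.75, and 32.62, 30.12 and 29.95 against 0.69, 0.39 and 0.26. The change was -0.82 in the first label and -4.47 in the second, a difference of -3.65 that passed (adjusted p = 3.00e-04). Prkaca, Adcy6 and Pde4d did not pass (0.08, -0.28 and -0.09). Akap12, an anchor of protein kinase A, was the 1 higher gene (0.61, SE 0.17, adjusted p = 0.0454). Akap12, Prkacb and Pde4c lost the call in 8 to 10 of the fits without 1 library, with adjusted p up to 0.106.

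Of 28 tested genes known as cAMP-responsive CREB targets, 1 was higher (Bdnf) and 3 were lower (Btg2, Nr4a1 and Pde4b), which is 3.57% and 10.7% beside 2.31% and 3.76% of all genes, and the median change was -0.22 against -0.04 over all genes. Nr4a1, an immediate early nuclear receptor, had 6.70, 9.09 and 8.95 TPM against 2.56, 3.69 and 5.40, and 37.4, 43.5 and 39.5 against 13.4, 9.09 and 9.18 (change -1.40, SE 0.20, adjusted p = 0.00137). Btg2, an antiproliferative gene with the CRE printed above, had 40.9, 37.7 and 42.5 TPM against 11.4, 27.7 and 27.6, and 80.8, 74.0 and 79.7 against 19.4, 49.3 and 46.6 (change -1.02, SE 0.25, adjusted p = 0.0255). Bdnf, a neurotrophin gene used as a CREB target in neurons, rose by 0.51 (SE 0.13, adjusted p = 0.0331). Fos, Sik1 and Per1, which respond to cAMP in many cells, did not pass (-0.65, -0.63 and -0.41, adjusted p = 0.0556, 0.183 and 0.350). Nr4a1 and Pde4b kept the call in all 12 fits without 1 library. Bdnf and Btg2 did not; Btg2 had an adjusted p of up to 0.0619, without control clone 9.

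Cytosolic ribosomal protein genes were mostly below their controls, although how many passed depended on scaling. Of 78 tested, 69 were below 0 in both labels and 0 were above 0 in both, where 36.8% of the 9438 genes with a promoter were below 0 in both. In common, 18 were lower (23.1%, beside 3.76% of all genes) and 0 were higher, and the median change was -0.41. Examples are Rps4x (-0.41, SE 0.08, adjusted p = 0.00685), Rpl10 (-0.43, SE 0.08, adjusted p = 0.00734) and Rpl15 (-0.67, SE 0.13, adjusted p = 0.00735), the 3 that kept the call in all 12 fits. Rpl15 lies on chromosome 14. The count was 3 of 78 with median-ratio scaling, where 2.99% of all genes were lower, and 3 of 78 with chromosome medians taken out, where 3.27% were, so that the list was then close to the background. It was 26 with quantile normalization (3.44% of all genes), and between 3 (without control clone 11) and 41 (without ATF1/CREB1-KO replicate 3) when 1 library was left out; the median stayed between -0.29 and -0.44. The share of all TPM taken by these genes was 14.2% to 15.1% in control clones 6 to 8 and 13%, 12.5% and 7.05% in the libraries labelled ATF1/CREB1-KO, and 3.57% to 4.03% against 3.04% to 3.25% in the other run, so the runs differ by more than the labels. These genes have many near-identical processed copies in the genome, so the values of single ones are uncertain.

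Transcripts of the mitochondrial genome moved the other way. All 7 tested of 13 protein genes were above 0 in both labels. Of these, mt-Cytb, mt-Nd1, mt-Nd2 and mt-Nd5 were higher in common (57.1%, beside 2.31% of all genes). For mt-Nd2, ATF1/CREB1-KO replicate 3 (1702 TPM) was not above its controls, and the call was lost in at least 1 fit without 1 library. mt-Cytb, the cytochrome b of respiratory complex III, had 3451, 3731 and 3140 TPM against 8322, 6075 and 12858, and 5027, 4341 and 4434 against 10993, 9524 and 9995 (change 1.24, SE 0.15, adjusted p = 5.20e-04). mt-Nd1 and mt-Nd5, subunits of complex I, rose by 0.83 (SE 0.12, adjusted p = 0.00126) and 1.00 (SE 0.16, adjusted p = 0.00348). The mitochondrially encoded share of all TPM was 2.08% to 2.33% in control clones 6 to 8 and 3.2% to 4.31% in the libraries labelled ATF1/CREB1-KO, and 1.21% to 1.42% against 2.06% to 2.63% in the other run. This list was made after the data were seen, and the share can also move with RNA quality, whose part was not tested.

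Nuclear genes of the same organelle were mixed. Of 78 tested nuclear subunits of the respiratory chain, Ndufa1 and Ndufv2 were higher and Ndufb2, whose CRE lies 6 bases before its start, was lower (2.56% and 1.28%, beside 2.31% and 3.76% of all genes). Ndufb2 had 1103, 1023 and 1116 TPM against 572, 849 and 597, and 348, 373 and 343 against 159, 150 and 163 (change -0.93, SE 0.12, adjusted p = 8.86e-04). Of 78 mitochondrial ribosomal protein genes, Mrpl4 and Mrpl55 were lower (2.56%), and of 34 translation factors Mrrf was higher and Guf1 lower (2.94% each). Guf1, a mitochondrial elongation factor, had 3.03, 5.87 and 3.47 TPM against 0.20, 0.32 and 0.59, and 26.7, 21.1 and 21.1 against 0.55, 0.02 and 0.12 (change -3.09, SE 0.38, adjusted p = 6.48e-04).

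Of 22 tested p53 targets, 7 were lower in common (31.8%, beside 3.76%) and 0 were higher. Ercc5, a nuclease of nucleotide excision repair, had 3.76, 4.34 and 3.98 TPM against 1.48, 1.73 and 1.75, and 14.2, 16.6 and 15.8 against 5.26, 8.20 and 7.46 (changes of -0.92 and -1.07 in the 2 labels, blocked adjusted p = 3.85e-04). Dcxr, a carbonyl reductase, fell by 1.24 (SE 0.18, adjusted p = 0.00187) and the stress-induced Sesn2 by 0.70 (SE 0.13, adjusted p = 0.00685). The apoptosis effector Bax fell by 0.42 (SE 0.09, adjusted p = 0.0151), the p53 ubiquitin ligase Mdm2 by 0.41 (SE 0.09, adjusted p = 0.0190), the death receptor gene Tnfrsf10b by 0.87 (SE 0.19, adjusted p = 0.0150) and Ccng1 by 0.78 (SE 0.21, adjusted p = 0.0396). Trp53 itself and Cdkn1a did not pass (-0.35 and -0.49, adjusted p = 0.420 and 0.209). Tnfrsf10b lies on chromosome 14 and lost its call when chromosome medians were taken out, while the other 6 kept theirs. Dcxr, Ercc5 and Sesn2 kept the call in all 12 fits without 1 library, and the count of the list ranged from 4 to 8 in those fits.

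Of 34 tested lysosome and autophagy genes, 4 were higher in common (11.8%, beside 2.31%) and 0 were lower. In both labels, 22 were above 0 and 5 below, where 65.1% of all genes had the same sign in both, in either direction. Among the 4 higher in common were the sialidase gene Neu1 (0.59, SE 0.09, adjusted p = 0.00186), the cholesterol exporter gene Npc1 (0.77, SE 0.11, adjusted p = 0.00181) and Tfeb, the transcription factor that drives lysosomal genes (0.36, SE 0.09, adjusted p = 0.0353). Neu1 and Tfeb lie on chromosome 17 and Npc1 on chromosome 18, whose medians were above own-run controls in all 6 knockout libraries for chromosome 17 and at 0.22 to 0.43 in 4 of them for chromosome 18, and Tfeb lost its call with chromosome medians taken out. Lamp1 and Mcoln1 did not pass (0.41 and 0.26, adjusted p = 0.0905 and 0.195). The list had 9 higher members with median-ratio scaling and 10 with quantile normalization, where 3.46% and 3.63% of all genes were higher.

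Of 40 tested genes of sterol and lipid synthesis, 3 were higher in common and 1 was lower (7.5% and 2.5%, beside 2.31% and 3.76% of all genes). The 3 were the acyltransferase genes Agpat3, Dgat1 and Dgat2. The lower gene was Gpam, which starts glycerolipid synthesis at the mitochondrial outer membrane. Gpam had 4.26, 3.73 and 2.87 TPM against 0.12, 0.66 and 0.15, and 27.1, 24.5 and 23.1 against 0.07, 0.51 and 0.54 (change -3.04, SE 0.38, adjusted p = 6.48e-04). All 6 knockout libraries were under 1 TPM. Dgat2 rose by 0.66 (SE 0.15, adjusted p = 0.0182), Dgat1 by 0.41 (SE 0.10, adjusted p = 0.0244) and Agpat3 by 0.46 (SE 0.12, adjusted p = 0.0381). Gpam alone of the 4 kept the call in all 12 fits without 1 library.

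The remaining lists had few members changed in common. Of 40 genes of DNA replication and mitosis, the licensing factor gene Cdt1 (-0.68, SE 0.12, adjusted p = 0.00568), Mcm3 (-0.47, SE 0.10, adjusted p = 0.0127) and Mcm4 (-0.65, SE 0.15, adjusted p = 0.0196) were lower. Of 36 genes of the ATF4 response and endoplasmic reticulum chaperones, Herpud1 (0.92, SE 0.14, adjusted p = 0.00259) and Pycr1 (1.25, SE 0.17, adjusted p = 0.00122) were higher and Ddit4 and Sesn2 lower. Of 33 genes of aquaporin-2 vesicle trafficking, the recycling GTPase gene Rab11a was higher (0.61, SE 0.14, adjusted p = 0.0172) and the secretory GTPase gene Rab27a (-1.17, SE 0.12, adjusted p = 2.20e-04) and its motor partner gene Myo5c (-0.75, SE 0.16, adjusted p = 0.0150) were lower. Of 25 genes of TGF-beta and BMP signalling, Acvr1, Skil and Smurf2 were lower, and of 20 genes of the EGF receptor family and its feedback, Egfr was lower (-0.71, SE 0.14, adjusted p = 0.0103) and the ERK phosphatase gene Dusp6 higher (0.69, SE 0.10, adjusted p = 0.00132). Each share was between 3.03% and 12%, beside 2.31% of all genes higher and 3.76% lower, and rested on at most 3 genes in a direction. Glycolysis had Aldoa (0.73, SE 0.17, adjusted p = 0.0223) and Pgk1 (0.51, SE 0.11, adjusted p = 0.0161) higher among 22, although a second entry under the name Aldoa was not called. Of 21 Wnt, Notch and YAP readouts, the matricellular gene Ccn2 (-1.13, SE 0.21, adjusted p = 0.00675) and Nrarp (-0.45) were lower and the ligand gene Wnt4 (0.60) was higher. Of 15 prostaglandin genes Alox5ap was higher and Pla2g6 (-0.48) lower. The shares were 9.09% higher for glycolysis, 4.76% higher and 9.52% lower for the readouts, and 6.67% in each direction for prostaglandin genes.

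Single members changed in 6 further lists: Txnrd1 of 22 NRF2 targets was lower (-0.44, SE 0.10, adjusted p = 0.0154), Ctnnb1, which encodes beta-catenin, of 35 junction and polarity genes was lower (-0.37, SE 0.09, adjusted p = 0.0200), Timp3 of 38 matrix genes was lower and Bax of 16 BCL2 family genes was lower. Tapbp of 30 interferon genes was higher (0.43, SE 0.09, adjusted p = 0.0119), and so was Ciart, a repressor in the circadian clock, of 17 clock genes (0.63, SE 0.12, adjusted p = 0.00751). The lower shares of these lists were 2.63% to 6.25%, beside 3.76% of all genes. The higher shares were 3.33% and 5.88%, beside 2.31%, and each rested on 1 gene. Lists made after the data were seen also had such members, and their shares are no support. The shares were 33.3% in each direction for calcium and vitamin D genes, beside 2.31% of all genes higher and 3.76% lower. They were 20% higher and 0% lower for retinoid and aldehyde genes. Of 3 tested calcium and vitamin D genes, S100g was higher and the vitamin D receptor gene Vdr lower (-1.21, SE 0.30, adjusted p = 0.0263). Vdr had 1.1, 0.41 and 2 TPM against 0.14, 0.03 and 0.1, and 6.03, 1.36 and 5.83 against 0.85, 0.99 and 0.36. Of 10 retinoid and aldehyde genes, the retinaldehyde dehydrogenase gene Aldh1a1 was higher, with 0.3, 0.23 and 0.19 TPM against 1.92, 12 and 6.21, and 0.22, 0.44 and 0.71 against 3.27, 12.3 and 20.5 (change 2.64, SE 0.40, adjusted p = 0.00208). Aldh1a7, a near copy of it, was listed at 0 in all 6 controls and at 0.35 to 6.72 TPM in the knockout libraries. Reads of these close relatives may be shared between them.

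None of the 4 intercalated, 1 proximal and 2 immune or endothelial genes tested was changed in common.

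The 5 libraries labelled ATF1-KO, with control clones 1 to 5 of a further run, lack ATF1 and keep CREB1 by label. In a fit of all 22 libraries, 399 of the 799 genes had the sign of the pooled change in ATF1-KO (49.9%), 55 had it with an unadjusted p under 0.05 (6.88%, beside 2.69% of all genes), 31 had the opposite sign with such a p, and 0 passed an adjusted p in ATF1-KO. The pooled change differed from the ATF1-KO change, in a test of the difference itself, in 418 of the 799, beside 4.23% of all genes; the genes were chosen for a large pooled change, so this count is a description. The 2 arms share no library, although they differ in run as well as in label.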

How the data were processed

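RNA was measured in mpkCCD cultures from SMARTer and Nextera XT libraries, per the labels' protocols. The deposited table holds TPM per gene, a length- and total-scaled abundance, which the authors made with STAR and RSEM, per the submitters' processing notes; versions, genome build and annotation are not given in the sources used here. Depth is not recoverable from TPM, so no counting interval is given.

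Genes averaging 1 TPM or more across these 12 libraries were taken as log2(TPM + 1) and fitted with limma 3.58.1 (R 4.3.3; empirical Bayes with trend), with run as a block and, for the within-run changes and their difference, 4 group means. P-values were adjusted by Benjamini-Hochberg over all 13158 genes. The 4 target genes also had a two-sided exact within-run permutation test. The script was tested on simulated data. Genes named are the 4 targets, the 14 largest increases and decreases by the smaller within-run change among genes with separated groups and a mean log2 of at least 2, and list members changed in common, with up to 4 unchanged members a list for contrast. The members and the 30 gene lists were chosen with earlier results of these data known, and 5 lists were added after these values were seen. Promoters are from RefSeq (GRCm38.p6). Alternatives were scaling, pseudocount, filter, array weights, the block and leaving out each library. The 18 rescue samples were not analysed here. Some list members are not reported here.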

Additional observations from a re-analysis of the deposited data

Results flagged for a closer look

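For 9 genes, 6 of them given here, the change differed between the 2 labels by a test of the difference itself (limma, Benjamini-Hochberg over 13158 genes). Label and run cannot be told apart in these differences, given as the ATF1/CREB1/CREM-KO change minus the ATF1/CREB1-KO change. Aqp2 differed by -5.98 (SE 0.62, adjusted p = 0.00574), Pde4b by -3.65 (SE 0.27, adjusted p = 3.00e-04), Guf1 by -2.43 (SE 0.35, adjusted p = 0.0403) and Gpam by -2.42 (SE 0.31, adjusted p = 0.0215). Pde4b, Guf1 and Gpam fell in both labels, by more in ATF1/CREB1/CREM-KO, and their controls were also higher in that run. Knockout means were near 0 in both labels for Guf1 (0.37 and 0.23 TPM) and Gpam (0.31 and 0.373 TPM). Their control means were 4.12 and 22.9 TPM, and 3.62 and 24.9 TPM. On log2(TPM + 1) the lower controls leave less room to fall, so these 2 differences partly reflect control level. Tln2, a cytoskeletal linker of integrins, differed by 2.08 (SE 0.29, adjusted p = 0.0350), with changes of -3.81 and -1.73. Gata4, a transcription factor, differed by 2.28 (SE 0.27, adjusted p = 0.0107), with changes of 0.98 and 3.25. The other 3, Angpt2, Cyfip2 and Gm22620, were not changed in common.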

How the results depend on the processing

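No paired analysis was possible because control clones 6 to 11 share no replicate number with knockout replicates 1 to 3. Without the run block, 24 genes passed, all 24 also changed in common; Aqp2 (-3.35) and Creb1 (-0.78) then did not pass, nor did Aqp2 without a filter (-3.35). With limma array weights 4560 genes passed and 2016 were changed in common; in a fit of all 22 libraries 2083 passed. Asking for a change of at least 1 in both labels left 163, and for an adjusted p under 0.05 in both left 82. Leaving out 1 library gave 613 (without control clone 9) to 2455 (without ATF1/CREB1-KO replicate 3) genes that passed and 540 to 1428, from the same 2 libraries, changed in common. Crem, not called as reported, passed with median-ratio scaling (0.82), quantile normalization (0.74), array weights (0.60) and all 22 libraries (0.77), and ranged from 0.53 to 0.87 without 1 library. Aqp2 ranged from -3.87 to -2.84 without 1 library. Genes whose change differed between labels numbered 2 with pseudocount 0.1, 3 with 0.5, 2 at a mean of at least 5 TPM, 79 with array weights, 25 with all 22 libraries, and 3 to 19 without 1 library. Of 109 named genes, 11 to 38 lost the call when 1 library was left out. No direction reversed under any of these. TPM holds no depth, and 3 libraries a group limit precision.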

Other observations

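Gata4, which is close to absent from control clones 6 to 11, differed among the other controls. Its mean was 0.00667 ± 0.0115 TPM in control clones 6 to 8 and 0.0167 ± 0.0289 TPM in control clones 9 to 11, against 0.983 ± 0.163 TPM in ATF1/CREB1-KO and 8.69 ± 0.374 TPM in ATF1/CREB1/CREM-KO (SD, n = 3). It was 2.21 ± 3.11 TPM in control clones 1 to 5 and 9.56 ± 2.3 TPM in the libraries labelled ATF1-KO (SD, n = 5), a change of 2.30 that did not pass (limma, adjusted p = 0.414).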
